A study of Mus musculus with 6 samples.

Results

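The TGF-beta receptor and SMAD genes described here are the ligand gene Tgfb1, the receptor genes Tgfbr1 and Tgfbr2, the signal transducers Smad2, Smad3 and Smad4, the inhibitory Smad7, and the nuclear repressors Ski, Skil and Tgif1. They were taken from the deposited counts by gene symbol, and all 10 were found among the 24421 genes of the table and passed the filter on low counts, which 13411 genes passed. RNA was sequenced from sorted Lin-CD117+ bone marrow cells of female CByB6F1 mice aged 2 to 5 months, the lineage-negative, KIT-positive fraction in which hematopoietic stem and progenitor cells (HSPCs) are found. Cells of 2 to 3 mice of a group were combined into each library, giving 3 untreated pools (pools 1 to 3) and 3 pools of ruxolitinib-treated mice (RUX, pools 4 to 6); ruxolitinib blocks the kinases JAK1 and JAK2. The labels used here give no dose or duration, and the comparison addresses how the drug alters transcripts of HSPCs in normal mice. Because each pool mixes mice, a p-value measures the spread between pools and not between single mice.

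TGF-beta is secreted in a latent form and, once freed, binds the type II receptor TGFBR2, which phosphorylates the type I receptor TGFBR1. The activated type I receptor phosphorylates SMAD2 and SMAD3, which join SMAD4 and enter the nucleus to regulate transcription. SMAD7 competes at the receptor and brings ubiquitin ligases to it, while SKI, SKIL (SnoN) and TGIF1 recruit corepressors to SMAD complexes. Smad7 and Skil are themselves induced by the pathway, as negative feedback. In bone marrow TGF-beta is known for holding stem cells in quiescence, with megakaryocytes as a major source of the ligand.

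No difference between RUX and untreated pools passed edgeR's quasi-likelihood test in any of the 10 genes, and every fold change lay within the spread between pools. The largest differences were those of Tgfbr1 and Tgif1, 0.865-fold and 0.879-fold in RUX relative to untreated pools, and that of Skil on the higher side, 1.08-fold; each moved with single pools, as given below for the gene. Positive log2 fold changes numbered 6 and negative ones 4, and their median was 0.03, beside −0.0036 over all tested genes. After Benjamini-Hochberg adjustment over all tested genes, 0 of the 10 were called, as were 0 (0%) of all 13411. At an unadjusted p under 0.05 there were 0 of the 10, beside 1.89% of all tested genes, and DESeq2 and limma-voom likewise gave 0 of the 10 at either threshold. The 3 RUX values overlapped the 3 untreated values for each of the 10, whereas 6.24% of tested genes had no overlap (2.99% with RUX above and 3.25% with RUX below). Intervals of 95% around the fold change excluded changes over 2-fold for 10 of the 10 and over 1.5-fold for 8, the exceptions being Tgfbr1 and Skil. Over all tested genes these shares were 80.9% and 56.8%.

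**Figure D1:**
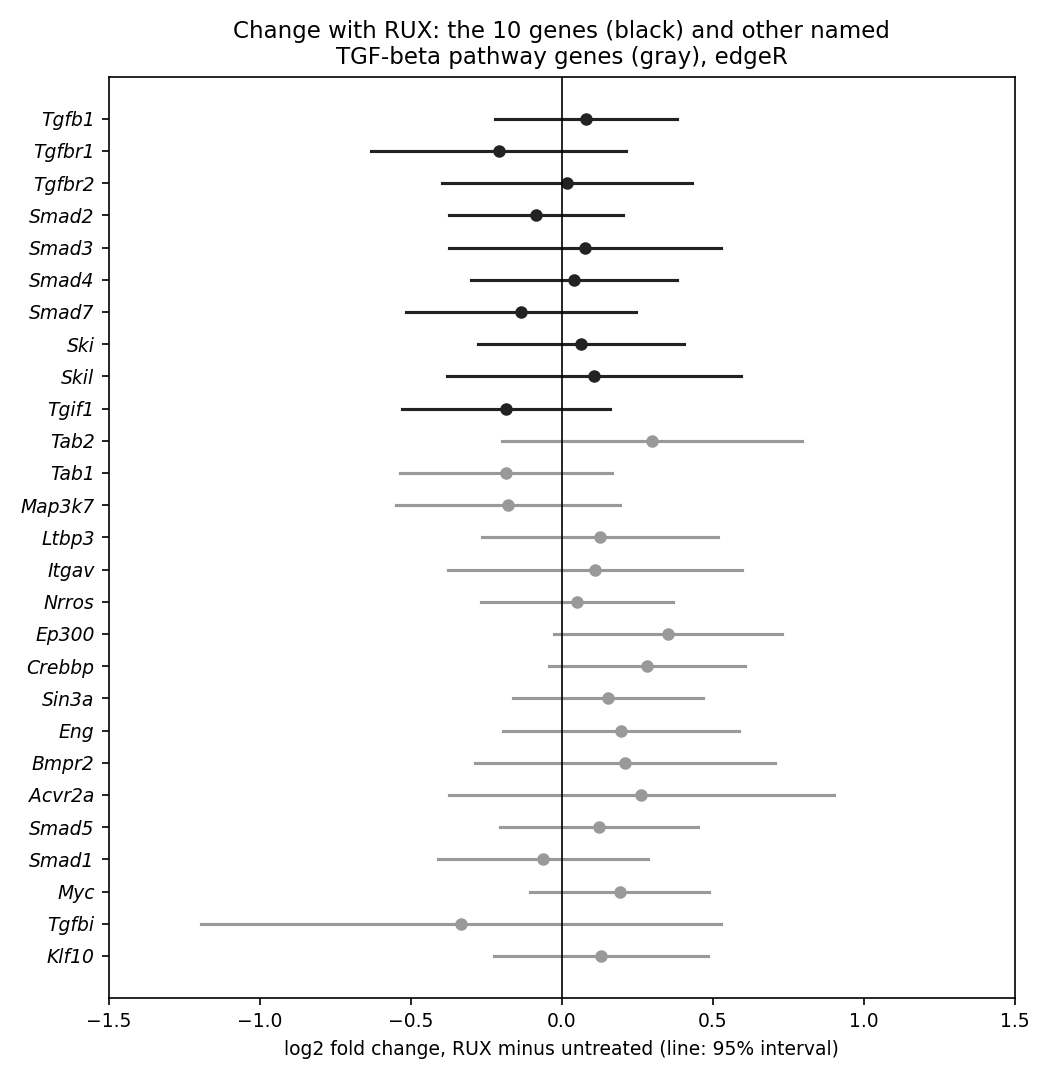
Log2 fold changes (RUX minus untreated, x axis) from edgeR with 95% intervals as lines, for the 10 genes in black and for 17 other pathway genes in gray. Every interval includes 0; those of the 10 genes run from −0.63 (Tgfbr1) to 0.59 (Skil).

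Untreated pool 3 stood apart from the other pools. It was lowest of the 6 pools for 6 of the 10 genes (Tgfbr1, Tgfbr2, Smad3, Smad4, Smad7 and Skil), for 25 of 65 tested genes of the wider pathway (38.5%) and for 21.6% of all tested genes. It also had the lowest summed level of 8 stem cell markers (111 CPM against 143 to 170 CPM of the whole library in the other pools) and the lowest Kit (191 against 277 to 476 CPM). Of the stem cell markers, Hlf was at 34.3 CPM in pool 3 and at 61.8 to 73.0 CPM elsewhere, whereas Mllt3 and Ctnnal1 were lowest in RUX pool 4. Neutrophil and eosinophil markers were highest in pool 3 but did not set it apart, since another pool was close in each. Summed neutrophil markers (8 of 8 detected) were 2381 CPM in pool 3 and 2259 CPM in untreated pool 2. They were 371 to 1439 CPM in RUX pools and lowest in untreated pool 1, at 169 CPM. Summed eosinophil markers (6 of 6 detected) were 230 CPM in pool 3, 213 CPM in RUX pool 4 and 40.3 to 92.7 CPM elsewhere. Monocyte and dendritic markers did set pool 3 apart in their sum, at 985 CPM against 426 to 674 CPM elsewhere. Of that list, Lyz2 was at 531 CPM in pool 3 and at 174 to 350 CPM elsewhere, whereas Csf1r and Cx3cr1 were highest in untreated pool 1. The part of these cell types in the values of pool 3 was not tested; in bulk RNA, fewer cells of a type and less RNA per cell cannot be told apart. Kit, which encodes the CD117 used in the sort, was thus present in every pool but at uneven levels. Among other progenitor markers, Cd34 ran from 352 CPM in pool 3 to 542 CPM. Myb and Gata2 were also lowest in pool 3, but Ly6a was lowest in untreated pool 2. For Myb another pool was close, RUX pool 6 at 489.5 CPM against 484.8 CPM in pool 3. The T cell antigen gene Cd8a was at 0 in 4 pools and at most 0.241 CPM in the others. Totals were 27354768 to 38691826 read pairs in untreated and 46027491 to 48747137 in RUX pools, so the RUX libraries were deeper.

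**Figure D2:**
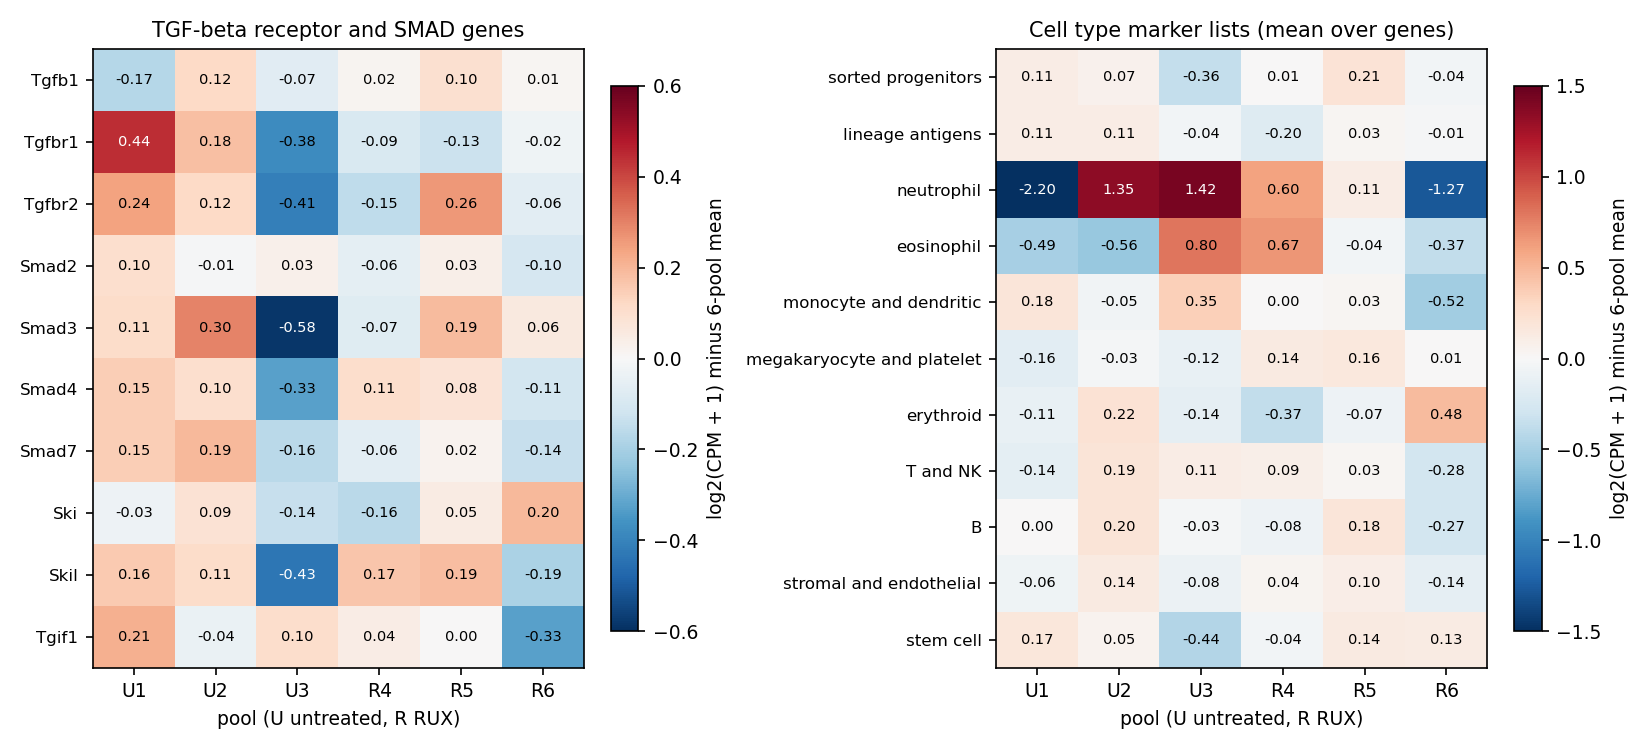
Deviation of log2(CPM + 1) from the 6-pool mean for each of the 10 genes (left) and, as a mean over genes, for 11 marker lists (right), in untreated pools (U1 to U3) and RUX pools (R4 to R6); color scales differ between the panels. The U3 column is the lowest for 6 of the 10 genes, down to −0.58 for Smad3, and for stem cell markers (−0.44).

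Levels between genes were compared as CPM per kilobase of annotated exon. Tgfb1 was by far the most abundant, at 98.6 ± 10.2 (SD, n = 3 untreated pools) and 104 ± 3.45 (SD, n = 3 RUX pools; later pairs follow this order), above 92.2% of tested genes. Smad4 followed at 25.1 ± 4.33 and 25.8 ± 2.10, then Tgif1 at 12.8 ± 1.15 and 11.3 ± 1.58. Smad2 (8.27 ± 0.317 and 7.79 ± 0.378) and Tgfbr2 (6.87 ± 1.59 and 6.95 ± 1.11) came next and exchanged places in RUX pool 5. Smad3, Ski and Tgfbr1 lay close together, at 5.40, 5.22 and 5.07 over all 6 pools, and their order changed from pool to pool, so these neighbours did not differ beyond their spread. Smad7, at 3.17 over all pools, was second to last and Skil, at 1.23, last in each of the 6 pools. Tgfb1, Smad4 and Tgif1 likewise held the first 3 places in every pool. The feedback genes Smad7 and Skil were thus the least abundant of the 10, and the order at either end was the same in both groups.

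**Figure D3:**
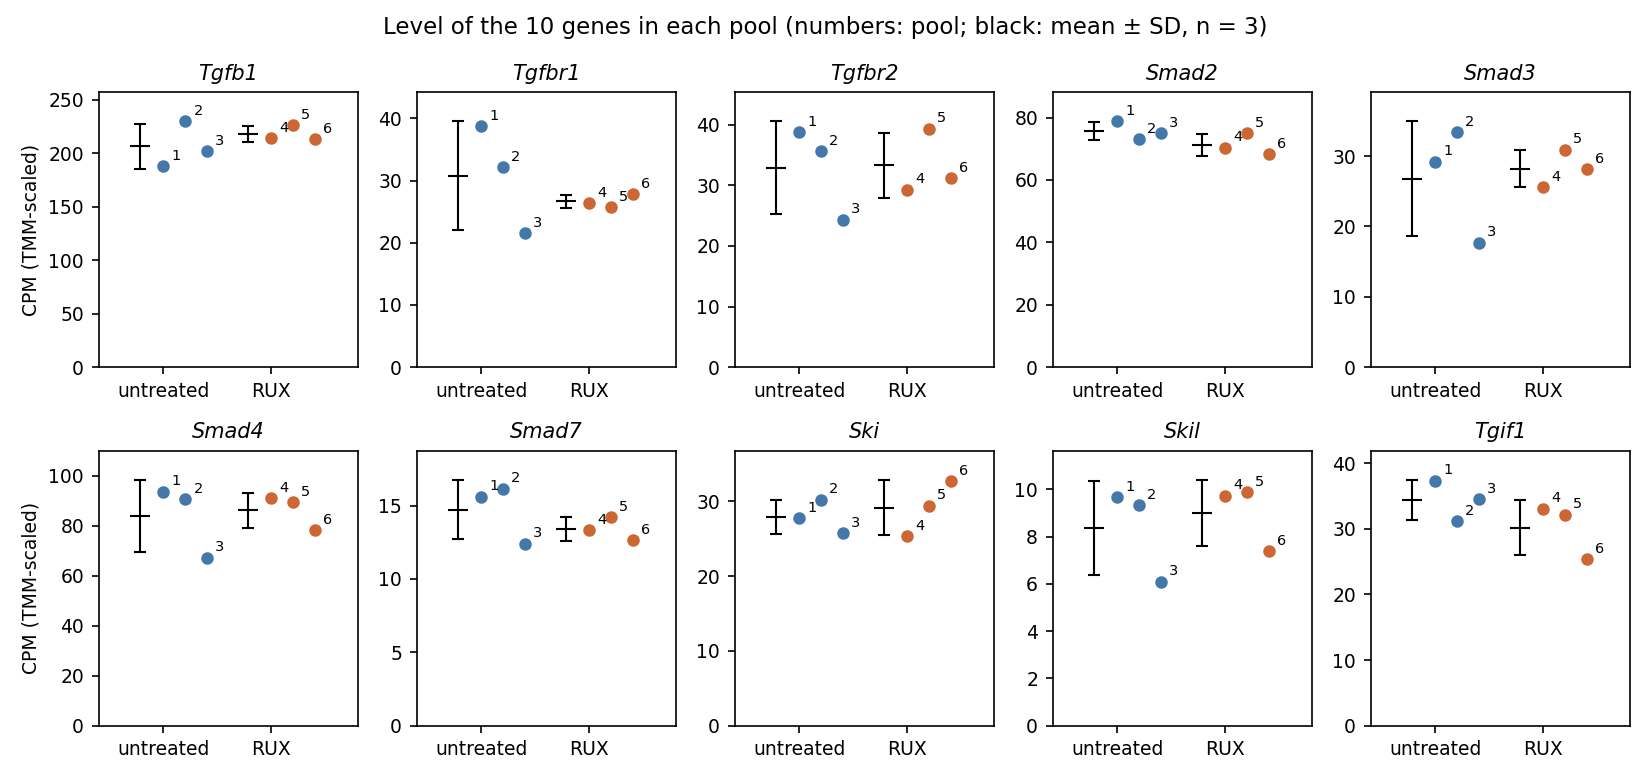
TMM-scaled CPM of each of the 10 genes (y axes from 0) in 3 untreated (blue) and 3 RUX pools (orange), numbered by pool, with mean ± SD in black. The groups overlap in every panel, and pool 3 is the lowest point for 6 genes.

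Of the ligand genes, Tgfb1 varied little and was the only TGF-beta isoform above 1 CPM. Tgfb1 (chromosome 7, 25687002 to 25704996 in mm10, 7 exon blocks) measured 188, 230 and 202 CPM in untreated pools 1, 2 and 3 and 214, 226 and 214 CPM in RUX pools 4, 5 and 6. The RUX values fell inside the untreated range. Its log2 fold change was 0.08 ± 0.14 (SE; edgeR adjusted p = 1). Tgfb3 measured 0.559 ± 0.305 and 0.707 ± 0.230 CPM, and Tgfb2 had 0 to 5 read pairs per pool. Megakaryocyte and platelet markers, of which 8 of 8 were detected, summed to 165 to 187 CPM of the whole library in untreated and 206 to 221 CPM in RUX pools; their part in the level of Tgfb1 was not tested.

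The receptor genes were both lowest in untreated pool 3, and neither differed between the groups beyond the spread of the pools. Tgfbr1, encoding the type I receptor kinase (chromosome 4, 47353305 to 47414924, 9 exon blocks), measured 38.8, 32.1 and 21.5 CPM in untreated pools 1 to 3 and 26.4, 25.7 and 27.8 CPM in RUX pools 4 to 6. The 3 RUX values lay close together, below untreated pools 1 and 2 and above untreated pool 3. The log2 fold change was −0.21 ± 0.20 (SE; edgeR adjusted p = 1), or 0.865-fold with a 95% interval of 0.646 to 1.16. It rested on single untreated pools: it was −0.41 without pool 3 (unadjusted p = 0.0227; edgeR adjusted p = 0.998) and −0.01 without pool 1. Tgfbr2, encoding the type II receptor (chromosome 9, 116087695 to 116175363, 8 exon blocks), measured 38.8, 35.6 and 24.3 CPM in untreated and 29.3, 39.3 and 31.2 CPM in RUX pools. Its groups overlapped throughout, with a log2 fold change of 0.02 ± 0.19 (SE). This value was −0.16 without untreated pool 3 and −0.12 without RUX pool 5. The ratio of Tgfbr2 to Tgfbr1, both per kilobase, was 1.19 to 1.34 in untreated pools and 1.31, 1.81 and 1.33 in RUX pools 4, 5 and 6, so RUX pool 5 lay above the other 5 pools.

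Promoter sequences of the receptor genes and of Smad3 are shown because Tgfbr2 and Smad3 were among the closest pairs of profiles of the 10 genes (r = 0.887 over 6 pools), closer than Tgfbr1 was to either (0.725 and 0.689). Without untreated pool 3 the r of Tgfbr2 with Smad3 was 0.701, and Tgfbr2 was closer to Smad2 (0.87). Whether these promoters share control was not tested. They are the 250 bases before the RefSeq transcription start in GRCm38.p6, the assembly whose chromosome coordinates mm10 uses, 5′ to 3′ on the gene's strand. Capitals mark the 4-base core of the SMAD binding element, AGAC or its reverse complement GTCT.
Tgfbr1 (chr4:47352972-47353221, + strand): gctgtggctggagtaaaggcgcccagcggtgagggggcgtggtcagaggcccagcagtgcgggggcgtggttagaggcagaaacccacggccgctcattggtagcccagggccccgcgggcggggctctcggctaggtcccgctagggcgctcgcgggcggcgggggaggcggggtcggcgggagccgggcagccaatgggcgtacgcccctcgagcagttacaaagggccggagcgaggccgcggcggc
Tgfbr2 (chr9:116175364-116175613, - strand): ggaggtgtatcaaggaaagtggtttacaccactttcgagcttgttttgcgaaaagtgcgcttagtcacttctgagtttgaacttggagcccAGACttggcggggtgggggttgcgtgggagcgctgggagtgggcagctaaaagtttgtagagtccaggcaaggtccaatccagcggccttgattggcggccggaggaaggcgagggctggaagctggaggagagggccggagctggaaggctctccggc
Smad3 (chr9:63757995-63758244, - strand): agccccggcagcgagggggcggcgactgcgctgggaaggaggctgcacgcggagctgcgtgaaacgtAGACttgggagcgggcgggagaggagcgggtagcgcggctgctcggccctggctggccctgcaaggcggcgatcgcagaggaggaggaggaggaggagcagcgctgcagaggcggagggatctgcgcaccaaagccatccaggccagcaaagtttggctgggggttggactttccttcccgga
The RefSeq start of Tgfbr1 lies 83 bases upstream of the first exon base in the count table, and the others coincide with it. The window of Tgfbr1 held 0 cores, and those of Tgfbr2 and Smad3 1 each. At least 1 core occurred in 83% of 27025 mouse promoter windows of the same length (1 per gene), so its presence does not set these genes apart. The window of Tgfbr1 was GC-rich, at 74.8% with 29 CpG sites, and that of Smad3 similar at 69.2% with 22, whereas that of Tgfbr2 had 58.4% and 12; medians over all windows were 52% and 6. Windows were found in the RefSeq table for 6 of the 10 genes. Those of Tgfb1 and Ski held 1 and 0 cores and that of Tgif1 held 2, and the palindromic element GTCTAGAC, present in 0.174% of all windows, occurred in 0 of the 6. The TGIF recognition motif TGACA, or TGTCA on the other strand, occurred in 40.4% of all windows and in 1 of the 6, that of Tgif1. A match describes these letters only and is not a measured binding site.

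Among the signal transducers, Smad2 had the smallest and Smad3 the largest ratio of highest to lowest pool among the 10 genes. Smad2, encoding a receptor-activated SMAD (chromosome 18, 76241701 to 76311747), measured 78.8, 73.1 and 75.0 CPM in untreated and 70.4, 75.1 and 68.3 CPM in RUX pools. The groups overlapped, and the log2 fold change was −0.09 ± 0.13 (SE; edgeR adjusted p = 1). Smad3, the other receptor-activated SMAD (chromosome 9, 63646767 to 63757994), measured 29.2, 33.4 and 17.7 CPM in untreated and 25.6, 30.9 and 28.1 CPM in RUX pools. The highest and the lowest value both came from untreated pools, and were 1.89-fold apart, against 1.15-fold for Smad2. Its log2 fold change was 0.08 ± 0.21 (SE), and −0.15 without untreated pool 3. The Smad2 to Smad3 ratio per kilobase was 2.36 in untreated pool 3 and 1.22 to 1.53 in the other 5 pools.

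Smad4, the partner shared by all receptor-activated SMADs (chromosome 18, 73639013 to 73703741), measured 93.6, 90.6 and 67.2 CPM in untreated and 91.0, 89.4 and 78.1 CPM in RUX pools. Untreated pool 3 was the lowest and RUX pool 6 the second lowest. The log2 fold change was 0.04 ± 0.16 (SE; edgeR adjusted p = 1), and −0.10 without untreated pool 3.

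Of the inhibitors, Smad7 stood lower in RUX pools relative to summed Smad2, Smad3 and Smad4, although its own level did not pass the test. Smad4 was the largest part of that sum, at 25.4 CPM per kilobase over all 6 pools against 8.03 for Smad2 and 5.40 for Smad3. No ratio of Smad7 to Smad2 or Smad3 alone was among those examined. Smad7 (chromosome 18, 75367365 to 75395934) measured 15.6, 16.2 and 12.4 CPM in untreated and 13.3, 14.2 and 12.6 CPM in RUX pools. The groups overlapped through untreated pool 3, and the log2 fold change was −0.14 ± 0.18 (SE; edgeR adjusted p = 1). Divided by the summed level per kilobase of Smad2, Smad3 and Smad4 in the same pool, Smad7 was 0.0829, 0.0873 and 0.0879 in untreated pools and 0.0752, 0.0781 and 0.0782 in RUX pools. This ratio, 0.0861 ± 0.00271 against 0.0771 ± 0.00171, did not overlap between the groups, and it did not when counts were taken without division by length (0.0774 to 0.0820 against 0.0714 to 0.0728). It was 1 of 4 ratios examined and was not tested, since the genes were chosen with earlier results of these data known. Set against the same sum, 2.58% of the 13408 tested genes outside it lay wholly lower in RUX pools, and 4.65% wholly lower or higher. Library depth and the summed levels of some marker lists also differed without overlap. Megakaryocyte and platelet markers were higher in RUX pools, as given above, also as a mean over genes. Summed monocyte and dendritic markers (6 of 6 detected) were 651 to 985 CPM in untreated and 426 to 635 CPM in RUX pools. Lyz2 and Irf8 made up most of that sum and each overlapped between the groups, as did the mean deviation over the list, and Siglech, at 0.554 to 1.55 CPM, was the only gene of the list without overlap. Summed stromal and endothelial markers were 60.4 to 67.1 CPM in untreated and 45.3 to 58.3 CPM in RUX pools. Pecam1, which blood cells also express, made up most of this sum, Col3a1 was at 0 in 4 pools, and the mean deviation over the list overlapped. Their part in the ratio was not tested.

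**Figure D4:**
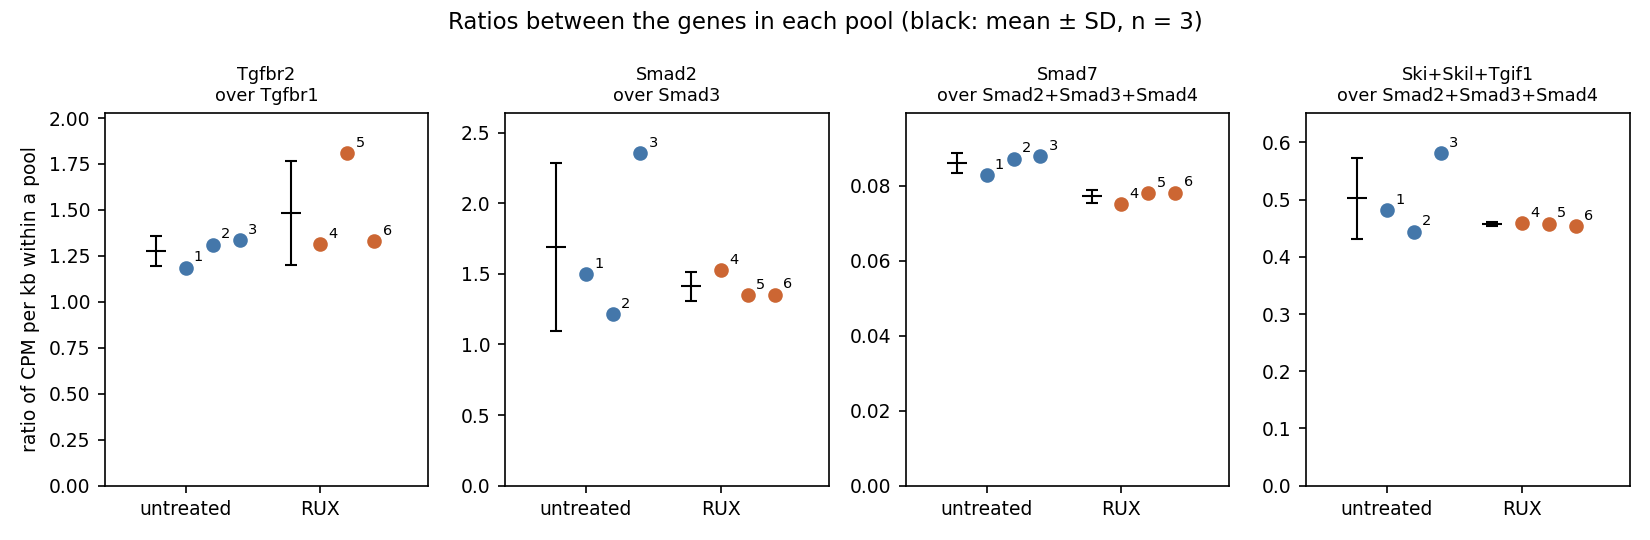
Ratios of CPM per kilobase within each pool (y axes from 0), for 3 untreated (blue) and 3 RUX pools (orange), numbered by pool, with mean ± SD in black. Of the 4 ratios, only that of Smad7 to summed Smad2, Smad3 and Smad4 separates the groups (0.0829 to 0.0879 against 0.0752 to 0.0782).

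The nuclear repressor genes showed no common shift. Ski (chromosome 4, 155154075 to 155222535) measured 27.8, 30.2 and 25.7 CPM in untreated and 25.3, 29.4 and 32.7 CPM in RUX pools, so RUX pools held both the lowest and the highest value. Skil (chromosome 3, 31095058 to 31122923), encoding the SKI-related SnoN, measured 9.68, 9.34 and 6.10 CPM in untreated and 9.73, 9.88 and 7.40 CPM in RUX pools. One pool of each group, untreated pool 3 and RUX pool 6, was low for Skil while the other 4 lay between 9.34 and 9.88 CPM. Tgif1, encoding a homeodomain corepressor (chromosome 17, 70844205 to 70853532), measured 37.3, 31.2 and 34.5 CPM in untreated and 33.1, 32.1 and 25.3 CPM in RUX pools. RUX pool 6 was the lowest here, and in that pool Ski was at its highest. Log2 fold changes were 0.06 ± 0.16 for Ski, 0.11 ± 0.23 for Skil and −0.19 ± 0.16 for Tgif1 (SE; edgeR adjusted p = 1 each). Without untreated pool 3 that of Skil was −0.08. Without RUX pool 6 that of Ski was −0.03 and that of Tgif1 −0.07. Ski, Skil and Tgif1 summed per kilobase stood at 0.454 to 0.460 of summed Smad2, Smad3 and Smad4 in RUX pools and at 0.482, 0.444 and 0.582 in untreated pools 1, 2 and 3. RUX pools thus lay close together inside the untreated range.

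Likeness of profiles was described by Pearson's r of log2(CPM + 1) over the 6 pools, which share composition and depth effects, so no p is given. Smad4 and Skil were the closest pair, with r = 0.984 over 6 pools and 0.951 over the 5 pools without untreated pool 3. Tgfbr2 and Smad3 had r = 0.887, and 0.701 without that pool, and Smad2 and Tgif1 had r = 0.845 and 0.837. The relation of Smad3 with Smad4 rested on pool 3, with r = 0.83 over 6 pools and 0.17 over 5. Smad4 and Tgif1 showed the reverse, with r = 0.206 over 6 pools and 0.952 over 5. Ski and Tgif1 ran opposite, with r = −0.764, and −0.748 without pool 3. Of 45 pairs, 38 had a positive r over the 6 pools, with a median of 0.366. The same share over pairs of other genes was not computed, so this count is not read as a trait of the 10. Over 9580 genes of at least 5 CPM, the nearest single gene to Smad3 was the platelet glycoprotein gene Gp1ba (r = 0.999), to Smad7 the transcription factor gene Ets1 (0.989), to Smad2 the adaptor gene Nedd9 (0.989) and to Tgif1 the chemokine receptor gene Ccr2 (0.986). Those nearest to Ski and Tgfb1 were Pprc1 (0.999), a transcriptional coactivator gene, and Nol8 (0.981), a nucleolar protein gene. For Tgfbr1, Tgfbr2 and Skil they were Zfp2 (0.993), Tcaim (0.995) and Lekr1 (0.988), and for Smad4 it was Skil itself. Each of the 10 thus had a gene at r of at least 0.981 among the 9580 compared, and no pair is singled out by such a value.

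Of the other pathway genes, 0 of 65 tested passed in either direction, at a smallest edgeR adjusted p of 1. The wider list held 80 genes of the table, of which 15 were too low to test. Positive log2 fold changes numbered 44 and negative ones 21 (67.7% positive, median 0.10), against 49.2% positive over all tested genes. The 44 include Itgb6, whose limit follows, and untreated pool 3 was the lowest pool for 38.5% of the 65. Without that pool the log2 fold changes of Acvr2a, Itgav and Klf10 turned negative and that of Tgfbi positive. The part of pool 3 in the excess of positive values was not tested. Itgb6, an integrin subunit that activates latent TGF-beta, had 5, 6 and 0 read pairs in untreated and 26, 20 and 17 in RUX pools. It was the only one of the 65 at an unadjusted p under 0.05, but it passed the filter on low counts only through the RUX pools, where it was high, so its p is not read. With a minimum of 1 CPM in 3 pools it was not tested, and 0 of 59 pathway genes were at an unadjusted p under 0.05. RUX pools lay wholly above untreated pools for 4 of the 65 (6.15%, beside 2.99% of all tested genes) and wholly below for 0. These 4 were Smurf1, Cdkn1c, Myc and, through that filter, Itgb6; all but Myc are named after their values were seen. Smurf1, a ubiquitin ligase that works with SMAD7, measured 9.43 ± 0.621 and 10.5 ± 0.209 CPM, and Cdkn1c, the p57 cell cycle inhibitor linked to TGF-beta in stem cells, 3.63 ± 0.665 and 4.79 ± 0.530 CPM.

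Among ligand and latency genes, 10 of 11 tested lay above 0 on the log2 scale (median 0.13, 0 called). The share to set beside this count and those of the lists below is 49.2% positive over all tested genes. The 10 include Itgb6, which passed the filter only through the RUX pools. Bmp4 and Tgfb3, also among the 10, and the negative Inhba averaged under 1 CPM in both groups. Nrros, which tethers latent TGF-beta on myeloid cells, was the most abundant of those named, at 186 ± 15.1 and 192 ± 24.5 CPM. Ltbp3, a latent TGF-beta binding protein gene, and Itgav, an integrin subunit gene, had log2 fold changes of 0.13 ± 0.18 and 0.11 ± 0.23 (SE). Lrrc32, the tether of latent TGF-beta on regulatory T cells, had 1 read pair in untreated pool 1 and 0 in the other 5 pools.

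Among other receptors, 8 of 10 tested were positive with a median of 0.20 and 0 called. The coreceptor gene Eng measured 59.0 ± 5.89 and 67.7 ± 17.2 CPM, which is 0.20 ± 0.18 (SE) on the log2 scale. Bmpr2 and Acvr2a, type II receptor genes for BMP and activin, had values of 0.21 ± 0.23 and 0.26 ± 0.30 (SE). Of the SMADs of the BMP branch, Smad5 measured 48.7 ± 7.29 and 53.0 ± 2.35 CPM and Smad1 39.8 ± 7.07 and 38.1 ± 1.42 CPM. Smad9 had 1 read pair in RUX pool 4 and 0 in the other 5 pools.

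Among adaptors, ligases and phosphatases, 9 of 18 tested were positive and 9 negative, with a median of −0.0086 and 0 called. The kinase gene Map3k7 (TAK1) of the branch independent of SMADs measured 81.2 ± 16.1 and 71.8 ± 9.90 CPM. Its partners Tab1 and Tab2 had log2 fold changes of −0.18 ± 0.16 and 0.30 ± 0.23 (SE). Tab2 was highest in RUX pool 4, at 66.1 CPM against 32.3 to 47.9 CPM in the other pools.

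Of 8 nuclear cofactors, 7 were positive, the median log2 fold change was 0.16 and 0 were called. The acetyltransferase genes Ep300 and Crebbp, coactivators of SMADs and of many other factors, lay nearest to the threshold among the pathway genes named by rule. Ep300 measured 38.2, 46.9 and 28.9 CPM in untreated and 50.4, 46.8 and 48.5 CPM in RUX pools, which is 0.35 ± 0.18 on the log2 scale (SE; unadjusted p = 0.0646, edgeR adjusted p = 1). Crebbp measured 38.0, 47.5 and 37.3 CPM in untreated and 52.2, 47.1 and 50.1 CPM in RUX pools, which is 0.28 ± 0.15 on the log2 scale (SE; unadjusted p = 0.0826, edgeR adjusted p = 1). In both, untreated pool 2 overlapped the RUX values. The value of Ep300 was 0.19 without untreated pool 3 (unadjusted p = 0.246) and 0.54 without untreated pool 2 (unadjusted p = 0.00977, edgeR adjusted p = 0.972). That of Crebbp was 0.22 and 0.41 without the same pools. The corepressor gene Sin3a had a log2 fold change of 0.15 ± 0.15 (SE).

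Target genes of TGF-beta showed no common direction, with 9 of 15 tested positive, a median of 0.03 and 0 called. Myc, which TGF-beta represses in many cell types, measured 404, 392 and 353 CPM in untreated and 424, 451 and 437 CPM in RUX pools without overlap. Its log2 fold change was 0.19 ± 0.14 (SE; edgeR adjusted p = 1). Klf10, an early response gene, measured 65.9 ± 13.5 and 72.1 ± 4.12 CPM, and Tgfbi, a matrix protein gene, 5.08 ± 2.98 and 4.05 ± 1.71 CPM. Tgfbi was highest in untreated pool 3, at 8.43 CPM.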

How the data were processed

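The kit was SMART-Seq mRNA LP (Takara), per the labels' protocols. The submitters' processing notes name STAR and mm10. Deposited counts are unnormalized read pairs summed over each gene's exons (UCSC mm10 genes, featureCounts 2.0.3, per the file headers). No strand option was set, so reads of antisense genes cannot be told apart. In that annotation 0 other genes overlap exons of the 10 genes. The deposited exon length of each gene served for values per kilobase.

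Columns were matched to pools by library name and groups taken from the labels. Totals were 27354768 to 48747137 counts, so 3 counts correspond to at most 0.11 CPM; this floor covers counting error only. No pools were duplicates (chi-square per degree of freedom at least 30.9). In R 4.3.3, edgeR 4.0.16 filtered genes by filterByExpr, scaled by TMM and applied the two-sided quasi-likelihood test with treatment as the only term, adjusted by Benjamini-Hochberg at 0.05. CPM are TMM-scaled; marker levels are per whole library. The SE is the size of the log2 fold change over the square root of F. The procedure was tested on simulated data, in which the changed genes differed by more than any of the 10 genes did. That run therefore does not show how often differences as small as theirs would be found. The log2 scale of profiles used log2(CPM + 1).

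Alternatives were DESeq2 size factors, upper-quartile scaling, no filter, a minimum of 1 CPM in 3 pools, DESeq2 1.42.0, robust fitting, limma-voom (3.58.1) with or without quality weights, and leaving pools out. Members and lists were chosen with earlier results of these data known. Named were the 10 genes, up to 3 genes of each of 6 pathway lists by smallest unadjusted p (5 CPM or more in one group), and the nearest profile of each of the 10. Of 81 listed pathway symbols, Ccn2 was not found; the table holds that gene as Ctgf.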

Additional observations from a re-analysis of the deposited data

How the results depend on the processing

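Called were 0 of the 10 genes and 0 of the wider pathway genes under each of 15 alternatives, including DESeq2, limma-voom and each pool left out. At an unadjusted p under 0.05 there was 1 of the 10 (Tgfbr1) without untreated pool 3 (beside 545 of all 13755 tested genes), alone or with RUX pool 4 (503 of 13469), and 0 otherwise. Of the wider list there were 0 to 6, the most being 6 of 65 without untreated pool 2 (666 of 13747). Over all genes 14 were called without a low-count filter and 1 by limma-voom with quality weights. The direction held in all 15 for 5 of the 10 genes (Tgfb1, Tgfbr1, Smad2, Smad7 and Tgif1) and for 7 of 17 named pathway genes. With 1 pool left out, log2 fold changes ran from −0.16 to 0.15 for Tgfbr2, −0.15 to 0.28 for Smad3, −0.10 to 0.13 for Smad4, −0.029 to 0.16 for Ski and −0.079 to 0.23 for Skil. They ran from −0.026 to 0.54 for Acvr2a, −0.0042 to 0.37 for Eng, −0.072 to 0.40 for Itgav, −0.030 to 0.23 for Klf10, −0.050 to 0.13 for Nrros, −0.20 to 0.035 for Smad1, −0.0012 to 0.51 for Tab2 and −0.63 to 0.24 for Tgfbi. For Tgfbr1 the range was −0.41 to −0.01, for Tgfb1 0.014 to 0.17, for Smad2 −0.12 to −0.055, for Smad7 −0.24 to −0.054 and for Tgif1 −0.25 to −0.075. Without untreated pool 3 and RUX pool 4 together, values were −0.074 for Tgfbr2, −0.084 for Smad3, −0.13 for Smad4, −0.14 for Skil, −0.16 for Acvr2a, −0.14 for Bmpr2, −0.042 for Itgav, −0.016 for Smad5 and −0.051 for Tab2. With quality weights they were −0.016 for Itgav and 0.017 for Tgfbi. The cause was not tested. Without division by exon length, mean ratios were 0.375 for Ski, Skil and Tgif1 over the SMADs (0.480 per kilobase), 2.79 for Smad2 over Smad3 (1.55) and 0.0756 for Smad7 over the SMADs (0.0816). Ranks per kilobase were the same with whole-library CPM and TPM. DESeq2 size factors and upper-quartile scaling shifted the median of all genes by 0.0095 and 0.0084 on the log2 scale. No paired analysis was possible because the groups share no pool numbers. Of the 10 genes the shallowest was Skil, with 222 to 482 read pairs per pool.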

Other observations

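The coefficient of variation of CPM was smaller in RUX pools for 7 of the 10, with medians of 8.77% in RUX and 15.5% in untreated pools. Over all tested genes it was smaller in RUX pools for 57.4%, with medians of 14% and 16.1%. The contrast was widest for Tgfbr1, at 3.92% in RUX and 28.2% in untreated pools, and reversed for Smad2, Ski and Tgif1. Untreated pool 3 was the lowest pool for 6 of the 10. The difference in spread was not tested.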
